A study of Mus musculus with 6 samples.

Results

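The genes described here are 10 mitotic cyclins, kinases and regulators of mitotic exit, namely *Ccna2*, *Ccnb1*, *Ccnb2*, *Cdk1*, *Cdc25b*, *Plk1*, *Aurka*, *Nek2*, *Cdc20* and *Ube2c*. They were listed by name, as genes of entry into and exit from mitosis, but chosen with earlier results of these data known. They are 10 of the 27179 genes in the count table. RNA-seq was performed on NP-binding IgG1+ germinal center (GC) B cells sorted from spleen, from WT or *Il21r*-/- mice, on days 7, 10 and 14 after immunization with NP-KLH in alum, a T cell-dependent antigen, with 1 library per genotype and day. All animals were of the C57BL/6 background, and the *Il21r*-/- mice lack the receptor for IL-21, a cytokine made by T cells. The sort excluded cells with CD138, IgM, IgD, Gr1 or CD38, after magnetic enrichment of IgG1+ cells. The methods give irradiated Ly5.1 hosts reconstituted with bone marrow of either genotype for every experiment but a BrdU/EdU time course, so that by the methods the tissue of the host that survives irradiation kept the receptor; the labels do not mention the hosts. The design text gives an independent mouse for each library, whereas the methods and supplement describe several mice of each genotype for this sort, and the sources differ on the number of mice behind a library.

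Mitosis begins when CDK1, bound first to cyclin A and then to cyclin B, is freed of its inhibitory phosphates by CDC25 phosphatases. PLK1, Aurora A and NEK2 act at the centrosomes and on the spindle, and PLK1 further activates CDK1. Mitosis ends when the anaphase-promoting complex (APC/C), switched on by CDC20 and supplied with ubiquitin by UBE2C, sends cyclin B and securin for degradation. The transcripts of these genes rise in G2 and M of each cycle and fall as the cells divide. GC B cells are among the fastest dividing cells in the body and divide mainly in the dark zone.

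The reads counted on genes numbered from 21353438 to 27435124 per library. Markers of GC B cells were present in all 6 libraries, 8 of 8 genes with a summed level of 6802 to 8149 CPM (counts scaled to library size) in WT and 7236 to 9093 in *Il21r*-/-. *Il21r*, the targeted gene, was lower in each *Il21r*-/- library, with 345.8, 263.0 and 246.6 CPM in WT and 105.8, 127.6 and 112.7 in *Il21r*-/-. Here and in what follows, the values of a genotype stand in the order of days 7, 10 and 14, and CPM values use library sizes scaled by edgeR's TMM factors.

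All 10 genes were expressed in all 6 libraries, and 11005 genes, these 10 included, passed the filter on low counts. Each of the 10 had a higher level in WT than in *Il21r*-/- on each of the 3 days, in 30 of 30 pairs of libraries. The same was true of 25.4% of all genes tested. Over the 3 days the median log2 fold change of the 10 genes was 0.31 and the range 0.15 to 0.52, against a median of -0.01 for all genes tested. Positive values mean higher in WT throughout. *Nek2* alone passed the threshold of an adjusted p of 0.05 in edgeR's quasi-likelihood test with a linear effect of day. In that test 5.92% of all genes were called in either direction and 1.40% were higher in WT. At an unadjusted p under 0.05 there were 7 of the 10. *Cdk1*, the last of these 7, ranked 2142 among the 11005 genes tested, and *Ube2c*, which missed that cut, ranked 2440. At least 2142 and fewer than 2440 of all genes thus passed it. The same background applies to the unadjusted counts given below for that test. When day was fitted as a factor, which pairs the libraries of a day as a block, 8 of the 10 were called, all higher in WT, against 22.9% of all genes in either direction and 9.33% higher in WT. The exceptions were *Ccnb2* and *Cdc25b*. DESeq2's Wald test with the linear effect of day called 4, *Nek2*, *Ccna2*, *Plk1* and *Aurka*, against 8.64% of all genes in either direction and 2.89% higher in WT.

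**Figure D1:**
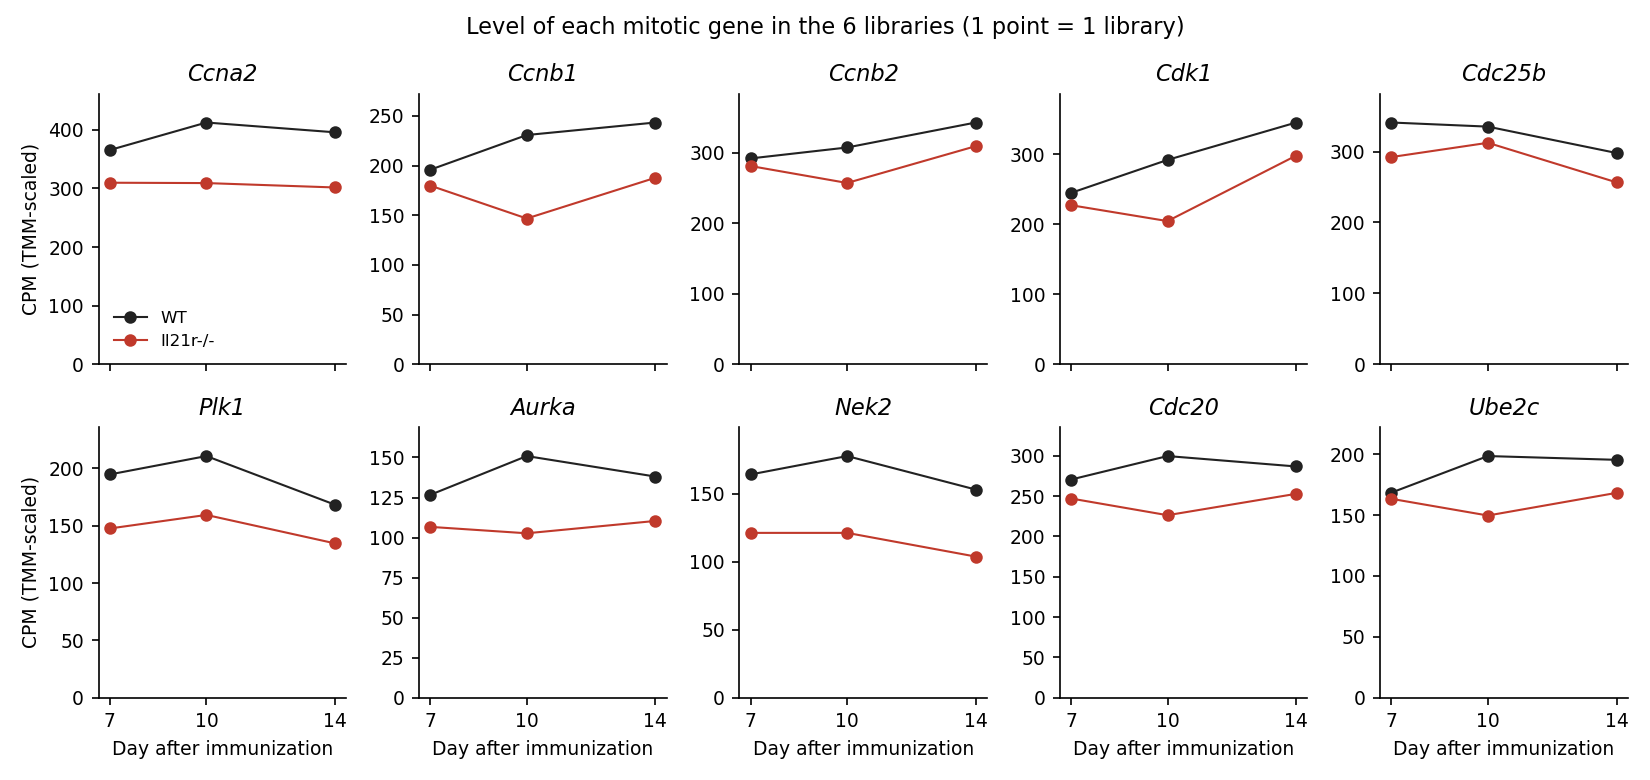
Level of each of the 10 genes in CPM (vertical axes, from 0) against the day after immunization, for WT (black) and *Il21r*-/- (red); each point is 1 library and lines join libraries of a genotype. The black point lies above the red one in all 30 pairs, with the narrowest gap for *Ube2c* on day 7 (168.4 against 163.3 CPM) and a wide one for *Ccnb1* on day 10 (230.7 against 146.7 CPM).

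In bulk libraries a smaller number of cells of a type and less RNA per cell cannot be told apart. Some markers of the light zone and of other B cells differed between genotypes too. Of the 8 markers of GC B cells as a whole, 0 were called over the 3 days by edgeR with the linear day effect (3 at an unadjusted p under 0.05, 0 by DESeq2) and 5 with the block, 2 of them higher in WT. The 5 light zone markers (*Cd83*, *Cd86*, *Cd40*, *Nfkbia* and *Egr1*) summed to 762.9 to 1013 CPM in WT and 1368 to 1618 in *Il21r*-/-, and 2 of them, *Cd83* and *Cd40*, were called higher in *Il21r*-/- over the 3 days, or 4 with the block. The 3 dark zone markers (*Cxcr4*, *Foxo1* and *Polh*) summed to 659.8 to 737.7 CPM in WT and 609.4 to 682.5 in *Il21r*-/-, and 0 of 3 were called by edgeR's quasi-likelihood test with the linear day effect (1 at an unadjusted p under 0.05, 0 by DESeq2), or 1, *Polh*, higher in WT, with the block. Of 7 markers of B cells outside the GC, 3 were called higher in *Il21r*-/- (*Fcer2a*, *Ccr7* and *S1pr1*) and 1 higher in WT (*Ighm*), and the sums overlapped, at 546.7 to 1199 CPM in WT and 908.3 to 1390 in *Il21r*-/-. Of 6 plasma cell markers, with sums of 2524 to 2739 CPM in WT and 2774 to 3621 in *Il21r*-/-, *Prdm1* was called higher in WT and *Xbp1* higher in *Il21r*-/-, with the block *Jchain* and *Irf4* were called higher in *Il21r*-/- as well (adjusted p = 0.0171 and 0.0384), and *Sdc1* and *Tnfrsf17* did not reach the filter on low counts. Their part in the levels of the mitotic genes was not tested. Among the T cell markers *Lck* had 80.8 to 120.9 CPM, and the others were below 1 CPM in each library. The sums of myeloid and erythroid markers stayed at or below 19.9 and 12.5 CPM. Of the myeloid markers *Cd68*, at 5.94 to 11.1 CPM, was called higher in *Il21r*-/-, and *Adgre1* was called as well with the block.

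To show what the promoters of these genes share, the RefSeq windows of GRCm38.p6 from 250 bases before to 50 after the start site were searched on both strands for 2 sequences known from mitotic genes. These are the CCAAT box (CCAAT), the site of the factor NF-Y, and the cell cycle genes homology region or CHR (TTTGAA), to which MuvB complexes bind. Windows were given for 9 of the 10 genes, all but *Ccna2*. A CCAAT was found in 9 of the 9 windows and in 37.4% of all 32851 windows, and a TTTGAA in 6 of 9 (*Ccnb2*, *Cdk1*, *Plk1*, *Aurka*, *Cdc20* and *Ube2c*) and 17.9% of all windows. In 6 of the 9, a pair of CCAAT on 1 strand had starts 31 to 33 bases apart, which held for 0.795% of all windows. This spacing was looked for after the positions had been seen. The stretches before the start site of 6 genes are printed 5′ to 3′ on the gene's strand, in lower case with CCAAT and TTTGAA, or their reverse complements, in capitals. *Nek2* is shown as the gene with the largest genotype difference, *Ccnb2* as that with the smallest, and the others for the spaced CCAAT or the placing of the CHR.
Nek2, chr1:191821373-191821472, plus strand: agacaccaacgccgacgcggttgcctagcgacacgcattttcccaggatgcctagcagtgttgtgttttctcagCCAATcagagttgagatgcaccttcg
Ccnb1, chr13:100786487-100786596, minus strand: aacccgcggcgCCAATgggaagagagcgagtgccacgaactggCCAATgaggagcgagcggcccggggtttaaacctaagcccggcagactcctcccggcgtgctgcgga
Ccnb2, chr9:70421555-70421654, minus strand: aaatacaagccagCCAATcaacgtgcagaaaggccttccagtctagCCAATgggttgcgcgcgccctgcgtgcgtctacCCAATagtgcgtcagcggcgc
Cdk1, chr10:69352913-69353012, minus strand: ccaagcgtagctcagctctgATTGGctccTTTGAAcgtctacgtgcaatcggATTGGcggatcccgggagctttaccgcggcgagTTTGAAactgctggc
Cdc20, chr4:118437344-118437413, minus strand: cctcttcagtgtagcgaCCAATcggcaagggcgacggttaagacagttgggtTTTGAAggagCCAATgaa
Ube2c, chr2:164769729-164769928, plus strand: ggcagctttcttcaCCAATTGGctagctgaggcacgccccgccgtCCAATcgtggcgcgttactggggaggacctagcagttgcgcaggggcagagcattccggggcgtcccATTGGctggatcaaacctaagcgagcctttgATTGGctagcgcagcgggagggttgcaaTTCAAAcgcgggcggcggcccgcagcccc

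The 2 capital runs of *Ccnb1* start 99 and 67 bases before the start site, 32 apart, and the 3 of *Ccnb2* start 87, 54 and 21 bases before it, 33 apart each time. In *Cdk1* the boxes lie on the opposite strand, 80 and 48 bases before the start, with a TTTGAA between them and another 15 bases before the start. *Cdc20* holds its TTTGAA between 2 CCAAT that are 45 bases apart. *Ube2c* has pairs 31 bases apart on either strand, and its first run is a CCAAT that overlaps one on the other strand. In *Nek2* the second CCAAT lies 7 bases past the start, 33 from the first, and no TTTGAA was found in the window. These matches describe letters, not bound sites. *Ccnb2*, with the smallest genotype difference, and *Ccnb1*, with a log2 fold change of 0.38, both have spaced boxes.

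**Figure D2:**
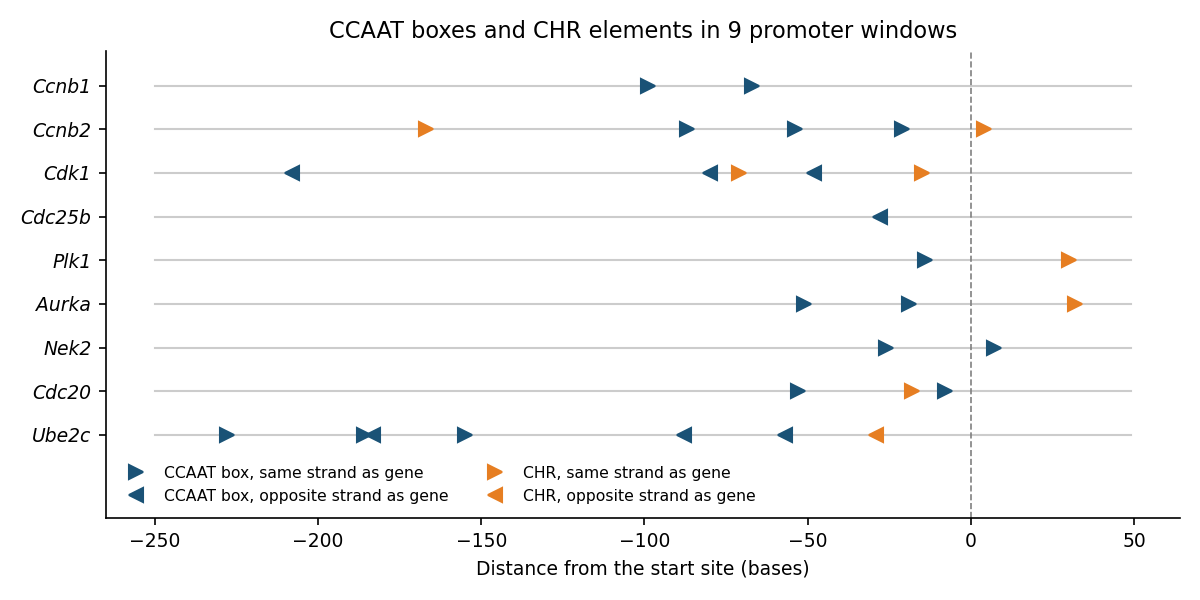
Positions of CCAAT boxes (blue) and CHR elements (orange) in the promoter windows of 9 genes, against the distance in bases from the start site (dashed line); triangles point along the strand of the match. All 9 windows hold a CCAAT, 6 of the 9 hold a pair 31 to 33 bases apart, and 6 of the 9 hold a CHR.

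Per length of transcript (RPKM, reads scaled by both library size and gene length), *Ccnb2* and *Ube2c* had the highest levels, with means over the 6 libraries of 193.5 ± 18.9 and 186.8 ± 20.5 (SD, n = 6). *Cdc20* followed with 147.9 ± 15.2 and *Ccna2* with 124.2 ± 17.3, and then came *Cdc25b* (97.1), *Cdk1* (93.9), *Ccnb1* (85.2), *Plk1* (76.8), *Aurka* (64.4) and *Nek2* (43.8). The order of some neighbours was not the same in all libraries. *Ccnb2* was above *Ube2c* in 5 of 6, *Cdc25b* above *Cdk1* in 4 of 6 and *Ccnb1* above *Plk1* in 4 of 6, whereas each other gene was above the next in 6 of 6. Reads of *Ccnb1* and *Ccnb2* can be shared with the pseudogenes *Ccnb1-ps* and *Ccnb2-ps*, and *Ccna2*, *Aurka*, *Nek2* and *Cdc20* overlap *Exosc9*, *Cstf1*, *Gm20585* and *Elovl1*. The strand setting of the counting is not given in the sources used here, so these levels carry that uncertainty.

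Among the cyclins, *Ccna2* (cyclin A2, active from S phase to the start of mitosis) had 365.5, 412.4 and 395.7 CPM in WT and 309.7, 309.1 and 301.6 in *Il21r*-/-. The *Il21r*-/- libraries lay within 301.6 to 309.7 CPM on all 3 days, below each WT library. The log2 fold change over 3 days was 0.35 (SE 0.09, adjusted p = 0.0681, or 0.00071 with the replicate block, edgeR's quasi-likelihood test). *Ccnb1* (cyclin B1, the main partner of CDK1 in mitosis) had 195.8, 230.7 and 243.3 CPM in WT and 179.8, 146.7 and 187.7 in *Il21r*-/-. Its levels did not overlap between the genotypes, and on day 10 *Il21r*-/- held 63.6% of the WT level, the lowest share among the 10 genes on any day. Over 3 days the log2 fold change was 0.38 (SE 0.12, adjusted p = 0.109, or 0.00248 with the block). *Ccnb2* (cyclin B2) had 291.8, 307.3 and 342.7 CPM in WT and 281.0, 257.0 and 309.2 in *Il21r*-/-. Here the groups overlapped, since *Il21r*-/- on day 14 was above WT on days 7 and 10. Its difference was 0.15 (95% interval -0.07 to 0.37, adjusted p = 0.419), and with the block 0.15 (95% interval 0.00032 to 0.31, adjusted p = 0.148), which did not pass the threshold after adjustment in either fit.

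*Cdk1*, the kinase that drives entry into mitosis, had 244.8, 291.9 and 345.3 CPM in WT and 227.2, 204.5 and 298.0 in *Il21r*-/-. Both genotypes had their highest level on day 14, and the groups overlapped. The fitted log2 difference over 3 days was 0.27 (SE 0.11, adjusted p = 0.211), and the call differed with the block (0.28, SE 0.08, adjusted p = 0.0122). *Cdc25b*, the phosphatase that starts the activation of CDK1 at the centrosome, had 341.0, 335.2 and 298.0 CPM in WT and 292.3, 312.4 and 256.6 in *Il21r*-/-. Its levels overlapped, and it was the only one of the 10 genes with its smallest difference on day 10. The value over 3 days was 0.18 (95% interval -0.04 to 0.40, adjusted p = 0.337, or 0.0799 with the block).

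The kinases of the centrosome and spindle differed by 0.38 to 0.52 on the log2 scale over 3 days. *Nek2*, which separates the centrosomes at the start of mitosis, had 164.0, 177.5 and 152.9 CPM in WT and 121.1, 121.1 and 103.7 in *Il21r*-/-. No *Il21r*-/- library reached the lowest WT library. It had a log2 fold change over 3 days of 0.52 (SE 0.10, adjusted p = 0.0179 with the linear day effect, 1.25e-05 with the block and 0.000268 by DESeq2), a level 1.43-fold higher in WT. The call with the linear day effect was lost when 1 library was left out, with adjusted p = 0.0549 without the day 7 *Il21r*-/- library, 0.0949 and 0.158 without the day 10 and day 14 WT libraries, and 0.117 without the day 14 *Il21r*-/- library (log2 fold changes of 0.46 to 0.53). Over all alternatives the adjusted p of *Nek2* ran from 1.25e-05 to 0.158 and the threshold was passed in 7 of 11.

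*Aurka* (Aurora A, which matures the centrosomes and activates PLK1) had 126.7, 150.9 and 138.1 CPM in WT and 106.7, 102.7 and 110.4 in *Il21r*-/-. The *Il21r*-/- levels lay within 102.7 to 110.4 CPM, below all WT levels. Its genotype difference on the log2 scale was 0.38 (SE 0.10, adjusted p = 0.0619, or 0.00119 with the block and 0.0234 by DESeq2). *Plk1*, which activates CDC25 and acts from mitotic entry to the division of the cell, had 194.7, 210.7 and 168.3 CPM in WT and 147.6, 159.4 and 134.6 in *Il21r*-/-. Its share of the WT level in *Il21r*-/- was alike on the 3 days, at 75.8%, 75.7% and 80.0%, and the groups did not overlap. Its log2 fold change over 3 days was 0.38 (SE 0.11, adjusted p = 0.0777, or 0.000605 with the block and 0.0252 by DESeq2). *Plk1* lies on chromosome 7, as the targeted *Il21r* does, 3433368 bases from it. Without the *Il21r*-/- library of day 10, 4 of the 10 genes passed the threshold with the linear day effect, these 3 kinases and *Ccna2*, against 19.7% of all genes in either direction and 8.70% higher in WT.

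**Figure D3:**
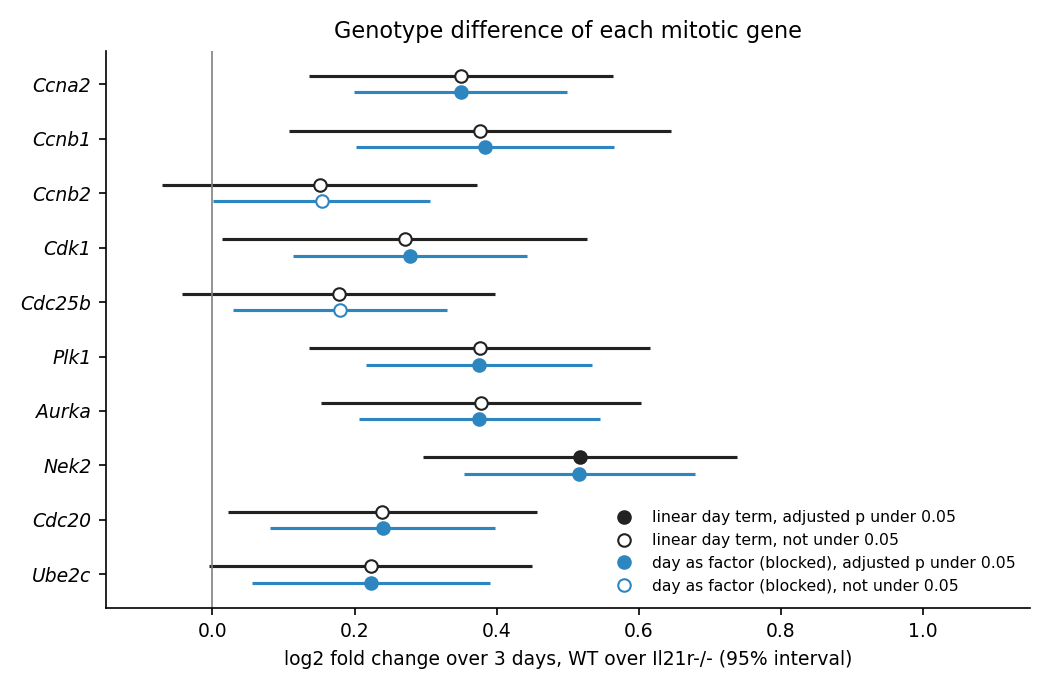
The log2 fold change over 3 days of each gene, WT over *Il21r*-/- (horizontal axis), with its 95% interval, from edgeR with a linear day effect (black) and with day as a factor (blue); filled points have an adjusted p under 0.05. The points of both fits nearly coincide, 1 black and 8 blue points are filled, and *Nek2* lies farthest to the right at 0.52.

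For the exit from mitosis, *Cdc20*, the activator of the APC/C, had 270.5, 299.6 and 286.7 CPM in WT and 247.0, 226.3 and 252.8 in *Il21r*-/-. The lowest WT library was above the highest *Il21r*-/- library. The log2 fold change over 3 days was 0.24 (SE 0.10, adjusted p = 0.193, or 0.0237 with the block). *Ube2c*, the ubiquitin-conjugating enzyme of the APC/C, had 168.4, 198.4 and 195.3 CPM in WT and 163.3, 149.6 and 168.2 in *Il21r*-/-. WT on day 7 and *Il21r*-/- on day 14 were nearly level, and the groups were apart by that margin only. The value over 3 days was 0.22 (SE 0.10, adjusted p = 0.243, or 0.0484 with the block, the call closest to the threshold). In all, 7 of the 10 genes had no overlap between the 3 WT and the 3 *Il21r*-/- libraries with WT higher, against 8.33% of all genes.

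Summed over the 10 genes, the level was 2363, 2615 and 2566 CPM in WT and 2076, 1989 and 2123 in *Il21r*-/-. The means were 2515 ± 133 in WT and 2063 ± 67.8 in *Il21r*-/- (SD, n = 3), a ratio of 1.22. All WT sums were above all *Il21r*-/- sums. With 3 libraries against 3, permuted without regard to day, the smallest two-sided p of an exact permutation test is 0.10. Permuting only within days, which keeps the pairing, could not reach a p that low. No p is given for the sum, whose genes were chosen with results known.

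Within a library, each gene was also set against *Ccna2*, as the log2 ratio of CPM values, to describe how even the difference was. The ratios overlapped between genotypes for all 9 other genes. The mean ratio was 0.17 higher in WT for *Nek2*, and it was lower in WT by 0.20 for *Ccnb2* (means -0.32 in WT and -0.12 in *Il21r*-/-) and by 0.17 for *Cdc25b* (-0.27 and -0.10). Across the 6 libraries, the correlation of log2 levels between pairs of the 10 genes ranged from -0.26 to 0.98 with a median of 0.79 over 45 pairs, a description of libraries that share genotype and day. The genes most like the mean centred log2 level of the 10 were *Tinf2*, *Api5*, *Fdps*, *Kpna2* and the pseudogene *Anp32b-ps1*, with Pearson's r of 0.991 to 0.994 over 6 libraries. *Tinf2*, which encodes a telomere-binding protein, had 101.7, 115.3 and 107.4 CPM in WT and 79.9, 76.2 and 80.5 in *Il21r*-/-. *Kpna2*, which encodes an importin, ran from 54.5 to 70.4 CPM.

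The days were then compared one by one, each with 1 library per genotype and an error taken from the scatter of all 6 libraries. On day 7 the median log2 fold change of the 10 genes was 0.18. By edgeR's likelihood ratio test 0 of 10 were called, against 1.07% of all genes. *Nek2* alone (0.44) had an unadjusted p under 0.05, and ranked 456 among the 11005 genes tested, so at least 456 genes passed that cut. On day 10 the median was 0.41, and 0 of 10 were called, against 3.10% of all genes. At an unadjusted p under 0.05 there were 7 of the 10. *Ube2c*, the last of these 7, ranked 1164 among all genes tested, so at least 1164 genes passed that cut. With dispersions from the model with day as a factor, the replicate block, 4 of 10 were called on day 10, against 7.47% of all genes (1.83% higher in WT), and with the linear day term kept 3 of 10, against 6.56% (2.05% higher in WT). On day 14 the median was 0.27, and 0 of 10 were called, against 3.28% of all genes. At an unadjusted p under 0.05 there were 2 of the 10 (*Nek2*, 0.56, and *Ccna2*, 0.39). *Ccna2* ranked 1221 among all genes tested, so at least 1221 genes passed that cut. With the block dispersions 1 of 10 was called on day 14, against 9.59% of all genes (3.51% higher in WT).

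The difference was largest on day 10 for 8 of the 10 genes and smallest on day 7 for 8 of 10. Among all genes tested, 33.3% had their highest value of WT over *Il21r*-/- on day 10 and 31.7% their lowest on day 7. *Ccnb1* went from 0.12 on day 7 to 0.65 on day 10 and 0.37 on day 14, and *Cdk1* from 0.11 to 0.51 and 0.21. *Nek2* and *Plk1* were steadier, at 0.44, 0.55 and 0.56 and at 0.40, 0.40 and 0.32. A linear change of the genotype effect with day was tested by edgeR's quasi-likelihood test. It was called for 0 of 10 genes and for 0% of all genes, with 0 of the 10 at an unadjusted p under 0.05 and slopes of -0.01 to 0.03 log2 units per day. A peak on day 10 is not what that linear term measures.

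**Figure D4:**
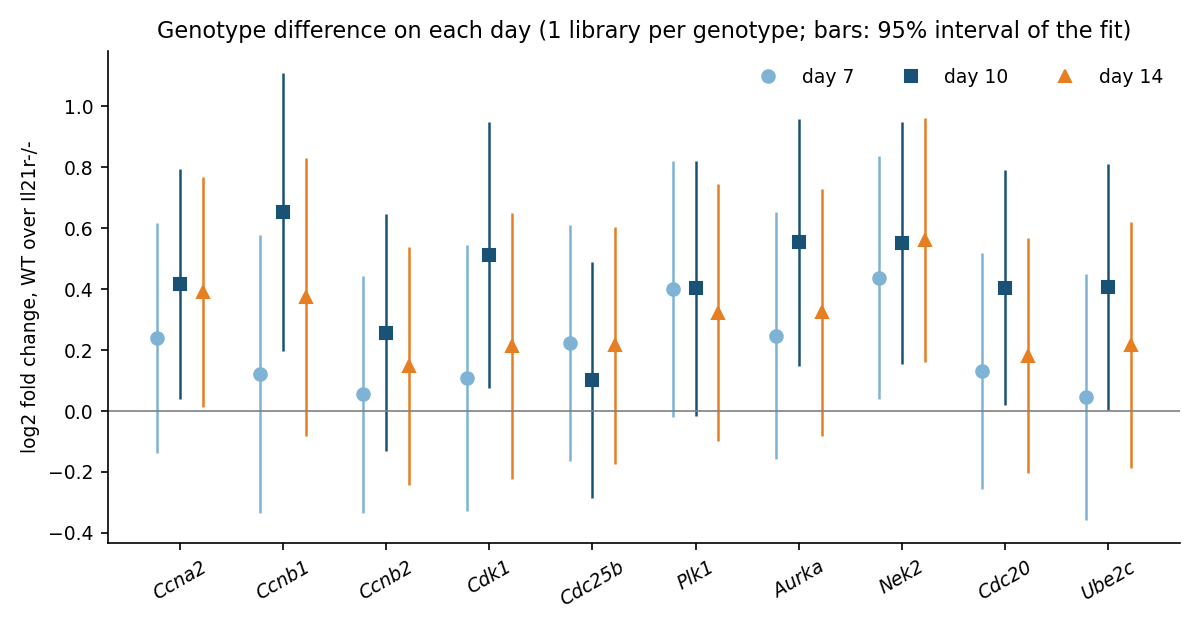
The log2 fold change of each gene, WT over *Il21r*-/- (vertical axis), on day 7 (circles), day 10 (squares) and day 14 (triangles), with the 95% interval of the fit; each value compares 1 library of each genotype. All 30 values are above 0, with day 10 highest for 8 of the 10 genes, *Ccnb1* on day 10 reaching 0.65.

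Over time alone, 0 of the 10 genes were called for a linear trend with day by edgeR's quasi-likelihood test or by DESeq2, against 4.43% of all genes in edgeR and 7.91% in DESeq2 (2.58% upward), and 1, *Cdk1*, had an unadjusted p under 0.05. *Cdk1* had a slope of 0.06 log2 units per day (SE 0.02, adjusted p = 0.0927). The median slope was 0.01 and the range -0.03 to 0.06. By value, 3 of the 10 genes had a lower level on day 14 than on day 7 in WT (*Cdc25b*, *Plk1* and *Nek2*) and 4 in *Il21r*-/- (*Cdc25b*, *Plk1*, *Nek2* and *Ccna2*). Without the *Il21r*-/- library of day 10, 1 of the 10 was called for the trend, upward with day, against 19.8% of all genes (8.83% upward).

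The other genes of the pathway were described from 6 lists. Of 19 tested regulators of CDK1 (of 20 listed, *Ccnb1ip1* not passing the filter), 0 were called over 3 days by edgeR with the linear day effect (6 at an unadjusted p under 0.05, 3 by DESeq2) and 8 with the block, all higher in WT, with a median log2 fold change of 0.20. *Mybl2*, the B-MYB factor that drives transcription of mitotic genes, had 32.1, 48.5 and 45.7 CPM in WT and 25.0, 36.6 and 28.6 in *Il21r*-/- (0.47, adjusted p = 0.161, or 0.000583 with the block). *Lin54*, the DNA-binding subunit of MuvB, had 0.38 (adjusted p = 0.147, or 0.0148 with the block), and *Gadd45b*, a stress-induced inhibitor of CDK1, also 0.38 (adjusted p = 0.0573, or 0.000865).

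Of 23 other kinases of mitotic entry and their partners, 1 was called with the linear day effect and 13 with the block, 12 of these higher in WT. The 1 was *Plk2*, a relative of PLK1 that acts mainly in G1 and in centriole duplication. It was lower in WT, with 4.21, 3.66 and 4.45 CPM in WT and 7.42, 7.12 and 6.95 in *Il21r*-/- (log2 fold change -0.80, SE 0.16, adjusted p = 0.0245). This direction is opposite to that of *Plk1*. *Tpx2*, the activator of Aurora A, had 145.4, 208.5 and 205.2 CPM in WT and 128.2, 148.1 and 119.8 in *Il21r*-/- (0.49, adjusted p = 0.0998, or 0.000851 with the block). *Incenp*, the scaffold of Aurora B, had 0.49 as well (adjusted p = 0.129, or 0.000383 with the block). The median of the list was 0.25.

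The 14 subunits of the APC/C had a median of 0.08. By edgeR's quasi-likelihood test 0 were called in either fit, and by DESeq2 0. At an unadjusted p under 0.05 in edgeR's test there were 0 and, with the block, 4. In the block fit of that test *Ccnb2*, with an unadjusted p of 0.0497, ranked 3691 among all genes tested. At least 3691 genes thus passed that cut with the block. *Cdc27* and *Cdc16*, core subunits, had the largest values, 0.22 and 0.21 (adjusted p = 0.251 and 0.250, or 0.056 and 0.0728 with the block). *Cdc20* and *Ube2c*, which act on this complex, were called with the block at 0.24 and 0.22 (adjusted p = 0.0237 and 0.0484). *Ube2c* and *Cdc27* thus had the same value to 2 digits, on either side of the threshold, and a difference between them was not tested. Of 12 regulators and substrates of the APC/C, 0 were called by edgeR with the linear day effect (4 at an unadjusted p under 0.05, 1 by DESeq2) and 5 with the block, 4 higher in WT and *Cdc14b* lower, with a median of 0.17. *Usp44*, a deubiquitinase of the spindle checkpoint, had 3.62 to 7.32 CPM and 0.62 (adjusted p = 0.0715, or 0.00695 with the block). *Espl1*, which encodes separase, had 0.42 (adjusted p = 0.231, or 0.000346), and *Fbxo5*, the inhibitor EMI1 of the APC/C, 0.33 (adjusted p = 0.0754, or 0.00437).

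The 13 mitotic kinesins, motors that build the spindle and divide the cell, had fitted values over 3 days above 0 in 13 of 13. Their median was 0.44, against -0.01 for all genes tested, and on day 7 alone 12 of 13 were above 0 (*Kif18a* at -0.03). The share of all genes with a fitted value above 0 is not given here. By edgeR 0 were called with the linear day effect (9 at an unadjusted p under 0.05, 5 by DESeq2) and 11 with the block. *Kif20a*, a motor of cytokinesis, had 91.4, 118.0 and 114.8 CPM in WT and 72.4, 85.9 and 67.4 in *Il21r*-/- (0.52, adjusted p = 0.0609, or 5.18e-05 with the block). *Kif20b*, at a lower level, had 10.9, 16.2 and 23.4 CPM in WT and 9.34, 12.3 and 9.27 in *Il21r*-/- (0.64, adjusted p = 0.131, or 0.0454 with the block). Its log2 fold change was 0.22 on day 7, 0.40 on day 10 and 1.33 on day 14. *Kif15* had 0.52 (adjusted p = 0.237, or 0.00645 with the block). The 17 genes of replication licensing and its firing, which peak before mitosis at G1/S, had fitted values over 3 days above 0 in 17 of 17. Their median was 0.39, against the same -0.01 for all genes tested. With the linear day effect 1 was called and with the block 17. The 1 was *Orc1*, a subunit of the origin recognition complex, with 16.6, 18.4 and 22.5 CPM in WT and 11.5, 12.4 and 12.3 in *Il21r*-/- (0.66, adjusted p = 0.0195). *Mcm10* had 0.63 (adjusted p = 0.0816, or 9.63e-05 with the block) and *Mcm2*, part of the replicative helicase, 0.48 (adjusted p = 0.0516, or 1.11e-05). The mitotic genes, with a median of 0.31, thus lay between the subunits of the APC/C and the kinesins by value, and no test of the difference between lists was made.

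**Figure D5:**
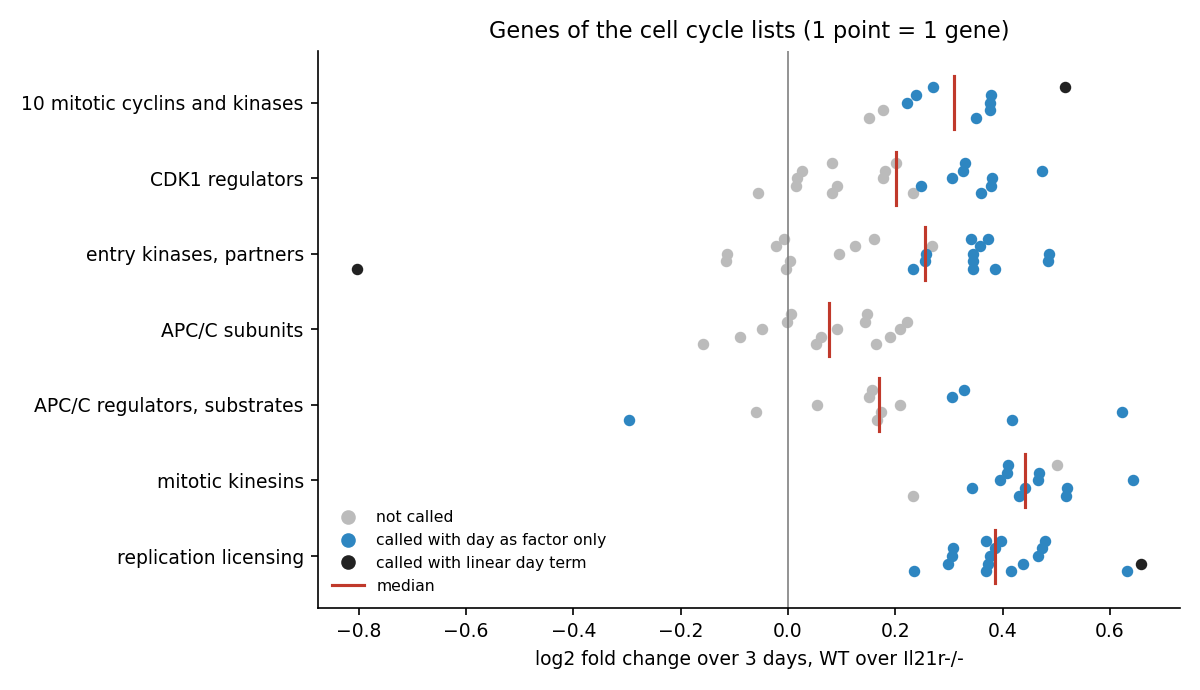
The log2 fold change over 3 days, WT over *Il21r*-/- (horizontal axis), of each tested gene of the 10 mitotic genes and the 6 other lists, with the median of a list in red; black points were called with the linear day effect, blue ones with day as a factor only, grey ones in neither. All points of the kinesins and of replication licensing lie above 0, the APC/C subunits centre near 0.08, and *Plk2* stands apart at -0.80.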

How the data were processed

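Total RNA of 6 libraries of sorted mouse GC B cells was sequenced in single-end reads. The authors aligned the reads to mm10 with Rsubread, pooled technical replicates and deposited whole-number counts per gene from featureCounts with its inbuilt RefSeq annotation, without normalization. CASAVA 1.8.2 is named in the submitters' processing notes. Settings for strand and multi-mapping reads are not given in the sources used here. Samples were grouped by the genotype and day of their labels.

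Entrez identifiers were named from RefSeq (25275 of 27179) and GENCODE (18 more), and 1886 without a symbol, with 1.57 to 2.24% of the counts, were kept. Genes with aveLogCPM under 0 were filtered out, as were Ig variable genes, *Xist* and genes of the Y chromosome (137 that passed the count filter). From the deposited counts, 11005 genes were tested with edgeR 4.0.16 (R 4.3.3, limma 3.58.1) and TMM factors. Dispersions were estimated under an additive model of genotype and a day slope, which left 3 residual degrees of freedom and gave a biological coefficient of variation (common to all genes) of 13.1%. The genotype effect over 3 days, the day trend and their interaction were tested by the quasi-likelihood test. Single days, fitted with a mean per day and no residual degrees of freedom, were tested by the likelihood ratio test. Benjamini-Hochberg adjustment was made over all genes tested, with a threshold of 0.05. P-values measure the spread between these libraries. Standard errors came from the information matrix of the fit. RPKM used the gene lengths in the table. The quasi-likelihood tests with a linear day effect were checked on simulated data. In these all genes had the common dispersion and any effect of day was linear, so other dispersions and day effects were not checked. The likelihood ratio test of single days was run on simulated data of that kind without a criterion to pass. No such check is given here for the fit with day as a factor or for DESeq2.

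Labels give both genotypes the same days, so that day pairs the libraries. Deviations from the genotype means correlated across genes (r = 0.64, 0.413 and 0.645 for days 7, 10 and 14), and a fit with day as a replicate block (2 residual degrees of freedom) is printed beside results that it changes. With so few residual degrees of freedom, the quasi-likelihood variance of a gene also drew on the variances of all genes, in the block fit and the linear one. The other alternatives were DESeq2 size factors, no filter on low counts, left-out genes kept, DESeq2 1.42.0 (Wald test), other day terms and dispersions for single days, unscaled totals, and each library left out.

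The 10 genes and all lists were chosen with earlier results of these data known, and the lists were written from general knowledge. Some marker genes of these lists are not reported here and are not in the sums or counts. Besides the 10 genes, *Il21r* and markers, genes were named if they had 1 of the 3 largest changes over 3 days among the called genes of a list (2 largest if none was called), or were among the 5 most correlated with the 10 genes. *Cdc14b* and the genes of the day trend in the closing section were named after their values were seen. Promoter windows came from RefSeq (GRCm38.p6). Figures were drawn with matplotlib.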

Additional observations from a re-analysis of the deposited data

How the results depend on the processing

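The direction of all 10 mitotic genes over 3 days was the same under each of the 11 alternatives, and the median log2 fold change ran from 0.26 to 0.36 with a library left out. The number called changed. Of the 10 genes, 1 was called over 3 days with the linear day effect, 8 with day as a replicate block, 3 with no filter on low counts, 4 by DESeq2's Wald test and 0 to 4 with 1 library left out. On day 10 the number was 0, with 3 when the linear day term was kept, 4 with dispersions from the replicate block and 0 to 1 with a library left out. On day 14 it was 0, with 1 under the block dispersions and 0 to 1 with a library left out, and for the day trend it was 0, with 0 to 1. Over all genes, 651 were called over 3 days, 2519 with the block, 991 without the filter and 951 by DESeq2. With a library left out the number was 132 (without WT on day 14) to 2165 (without *Il21r*-/- on day 10). How many genes were tested without the filter is not given here. The 991 thus gives no share of all genes to set beside the 3 of the 10. The day trend gave 488, 869 without the filter, 870 by DESeq2 and 0 to 2177, and the interaction 0, with 0 to 12. Day 7 gave 118, or 303 with the block dispersions and up to 220 with a library left out. Day 10 gave 341, or 822 with the block dispersions, 722 with the linear term and 267 to 418 with a library left out. Day 14 gave 361, or 1055 with the block dispersions and up to 704 with a library left out. The causes were not tested. For the 10 genes over 3 days, 91 of the gene and setting pairs had the same outcome as the main fit, 15 gained a call and 4 lost one. Of the 91, 7 were called in both, all of them *Nek2*, and the rest were called in neither. The summed level differed by 452.2 CPM, and by 525.7 CPM without TMM scaling. DESeq2's size factors changed no call of the 10 genes over 3 days. With 1 library per genotype and day, differences within a day have no replicate. The lowest count of the 10 genes in a library was 2445 reads, of *Aurka*. Leaving out a library of a day gave no value for that day.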

Other observations

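Of the 98 tested genes of the 6 cell cycle lists, 3 (3.06%) were called for a linear trend with day by edgeR's quasi-likelihood test, a share below the 4.43% of all genes. They are *Cdkn1a*, *Chek1* and *Sfn*, all from the list of CDK1 regulators. *Cdkn1a*, the inhibitor p21, rose with day in both genotypes, with 1.28, 1.34 and 2.86 CPM in WT and 0.916, 1.60 and 3.09 in *Il21r*-/- on days 7, 10 and 14 (0.21 log2 units per day, SE 0.04, adjusted p = 0.0296). *Chek1*, the checkpoint kinase that restrains CDC25, rose as well, with 56.7, 65.7 and 84.1 CPM in WT and 46.3, 52.1 and 61.5 in *Il21r*-/- (0.07 per day, SE 0.02, adjusted p = 0.0491), with the higher level in WT on each day by value. *Sfn*, the 14-3-3 sigma protein that holds CDK1 and cyclin B in the cytoplasm, fell, with 19.2, 14.4 and 8.29 CPM in WT and 16.0, 14.9 and 9.19 in *Il21r*-/- (-0.15 per day, SE 0.03, adjusted p = 0.0211). Each trend rests on 3 days with 1 library of each genotype, and all 3 calls were lost without the WT library of day 7 (adjusted p = 0.12, 0.37 and 0.207 for *Cdkn1a*, *Chek1* and *Sfn*), the *Il21r*-/- library of day 7 (0.108, 0.0978 and 0.0513), the WT library of day 14 (0.264, 0.491 and 0.283) or the *Il21r*-/- library of day 14 (0.166, 0.176 and 0.077). Without the WT library of day 10 *Chek1* alone lost its call (0.102). *Cdkn1a* was at a low level in all 6 libraries.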
